A study of Homo sapiens with 28 samples.

Results

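The clustered protocadherins are 53 protein-coding genes in a single stretch of human chromosome 5, out of 19821 protein-coding genes placed on chromosomes 1 to 22 and X. They were taken by symbol: PCDHA, PCDHB, PCDHGA, PCDHGB, PCDHAC or PCDHGC followed by digits. In GRCh38 the locus spans 727 kb (chromosome 5, 140786140 to 141512975). The alpha cluster holds 15 members over 226 kb (140786140 to 141012347). The beta cluster holds 16 members over 198 kb (141051374 to 141249365). The gamma cluster holds 22 members over 182 kb (141330514 to 141512975).

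The study profiled chromatin by ChIP-seq in T47D, an established line of luminal breast cancer cells, and its title concerns the transcription factor ZHX2 in hypoxia. Antibodies against ZHX2, CTCF and acetylated lysine 27 of histone H3 (H3K27ac) were used on cells held in hypoxia and on cells held in normoxia. An antibody against the Flag tag was used on hypoxic cells alone, labelled PA or WT, and the growth protocol mentions lentiviral infection with drug selection. The labels do not say what PA stands for, and they do not name the tagged protein, the promoter that drives it or a clone. The study's title makes ZHX2 the likely one. Each of these 8 groups had 2 samples and 1 deposited peak list, and nothing in the labels says that the 2 samples came from separate cultures. The other 12 samples carry no antibody, and 4 of those are titled Flag.

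Clustered protocadherins are cadherin-like adhesion proteins best known for giving neurons an identity on their surface. In the alpha and gamma clusters each variable exon has its own promoter and is spliced to constant exons shared by the whole cluster, whereas beta members have no shared constant exons. A neuron uses a small and largely random choice of these promoters. CTCF, the zinc finger protein that with cohesin anchors chromatin loops, binds a conserved element in most of the promoters, whose core carries the letters CGCT, and in alpha members it also binds a site inside the variable exon. The C-type members (PCDHAC1, PCDHAC2, PCDHGC3, PCDHGC4 and PCDHGC5) are used more uniformly among neurons than the others.

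Marker genes of the labelled cell type and of other types were counted within 1 kb of either annotated end, where 65.2% of all genes had an H3K27ac peak in hypoxia and 64.4% in normoxia. H3K27ac lay at 8 of 8 luminal genes in both conditions, at 0 of 4 basal genes and at 1 of 4 immune genes (CD3E). Of 8 neuronal genes, 4 had one in hypoxia and 5 in normoxia. The lists held 32343 (hypoxia) and 14586 (normoxia) ZHX2 peaks, 77334 (hypoxia) and 88248 (normoxia) CTCF peaks, 46713 (hypoxia) and 42586 (normoxia) H3K27ac peaks, and 16019 (PA) and 31278 (WT) Flag peaks. No read depth and no value per sample was given for them, so no difference between conditions or forms below was tested. A fold is the authors' enrichment of a peak over background, and it ranks a peak within its own list only.

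The promoters show what the members share in sequence. RefSeq promoters of the GRCh38.p14 build were matched for 47 members, of which 46 had an entry at the annotated start. PCDHA3, PCDHA13, PCDHB6, PCDHB11, PCDHGA12 and PCDHGC5 had none. The letters CGCT stood on the coding strand between 100 and 31 bases before the start in 43 of 46 member promoters, against 26.3% of 13793 promoters of protein-coding genes. The planned search covered whole promoters on both strands, where 45 of 46 members and 81.3% of all promoters held CGCT. The narrower stretch on the coding strand was not part of that plan. Each sequence below is that stretch of 70 bases on the plus strand of chromosome 5, with CGCT in capitals. They were picked to show each cluster's letters around CGCT and stretches without CGCT (PCDHA9 and PCDHB8). They also show stretches with CGCT at members that have no CTCF peak within 1 kb of the start (PCDHB1, PCDHGA9 and PCDHGC4). In order they lie at chr5:140806968-140807037, chr5:140841087-140841156, chr5:140848282-140848351, chr5:140926199-140926268, chr5:140966376-140966445, chr5:141051274-141051343, chr5:141177690-141177759, chr5:141187061-141187130, chr5:141208619-141208688, chr5:141382642-141382711, chr5:141397847-141397916, chr5:141402678-141402747, chr5:141475866-141475935 and chr5:141484930-141484999.
PCDHA4: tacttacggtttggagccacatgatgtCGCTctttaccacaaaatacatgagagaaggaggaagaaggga
PCDHA8: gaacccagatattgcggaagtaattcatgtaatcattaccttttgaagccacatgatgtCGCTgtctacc
PCDHA9: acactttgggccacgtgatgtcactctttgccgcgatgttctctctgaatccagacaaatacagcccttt
PCDHAC1: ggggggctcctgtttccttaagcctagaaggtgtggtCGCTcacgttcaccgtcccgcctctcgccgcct
PCDHAC2: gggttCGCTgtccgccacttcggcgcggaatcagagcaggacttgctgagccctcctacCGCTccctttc
PCDHB1: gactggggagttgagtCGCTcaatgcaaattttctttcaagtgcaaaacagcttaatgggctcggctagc
PCDHB8: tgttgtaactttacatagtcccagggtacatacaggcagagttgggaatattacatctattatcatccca
PCDHB9: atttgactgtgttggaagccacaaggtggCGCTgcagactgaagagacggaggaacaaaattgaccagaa
PCDHB12: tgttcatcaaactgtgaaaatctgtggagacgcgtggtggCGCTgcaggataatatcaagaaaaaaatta
PCDHGA7: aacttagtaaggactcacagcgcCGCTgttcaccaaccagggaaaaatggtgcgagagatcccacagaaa
PCDHGB5: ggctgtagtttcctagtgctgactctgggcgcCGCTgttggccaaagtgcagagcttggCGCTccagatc
PCDHGA9: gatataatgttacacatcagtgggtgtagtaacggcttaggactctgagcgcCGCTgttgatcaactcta
PCDHGC3: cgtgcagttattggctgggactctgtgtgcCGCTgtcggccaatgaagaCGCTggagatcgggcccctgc
PCDHGC4: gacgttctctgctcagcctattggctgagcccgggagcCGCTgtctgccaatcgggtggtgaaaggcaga

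The letters around the core differed by cluster. Whole promoters, 250 bases before to 50 after the start, were searched on both strands for longer words chosen after the sequences were seen. TGTCGCT stood in 10 of 13 alpha promoters, 1 of 14 beta promoters and 3 of 19 gamma promoters, against 2.13% of all promoters. GGTGGCGCT stood in 13 of 14 beta promoters, 0 of 13 alpha promoters and 0 of 19 gamma promoters, against 0.711% of all promoters. GCCGCTGT stood in 11 of 19 gamma promoters and in no alpha or beta promoter, against 1.88% of all promoters. All 3 words contain CGCT, so their counts overlap with it. The bare letters CGCT are common, with 45 of 46 members and 81.3% of all promoters holding them. AGGGGGC stood in 0 of 46 member promoters, against 17.5% of all promoters, and AGGTGGC in 2 of 46, against 7.42%. TATAAA, the letters of a TATA box, stood in 6 of 46 against 10.0%. Among the members printed above, PCDHA9 and PCDHB8 had no CGCT in the 70 bases, and PCDHB5 was the other such member.

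CTCF occupied nearly all of the starts. In hypoxia 48 of 53 members had a CTCF peak within 1 kb of the start (90.6%, against 54.8% of the 15819 protein-coding genes whose strand was known), and in normoxia 46 had one (86.8%, against 56.6%). All 15 alpha members had one in both lists. Of 16 beta members 15 had one in hypoxia and 14 in normoxia, and of 22 gamma members 18 had one in hypoxia and 17 in normoxia. The 5 members with none in either list were PCDHB1, PCDHGA9, PCDHGA12 and the C-type members PCDHGC4 and PCDHGC5. PCDHB1, PCDHGA9 and PCDHGC4 carry CGCT in the sequences above. So does PCDHAC2, whose CTCF peak lies past the printed stretch in both conditions.

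**Figure D1:**
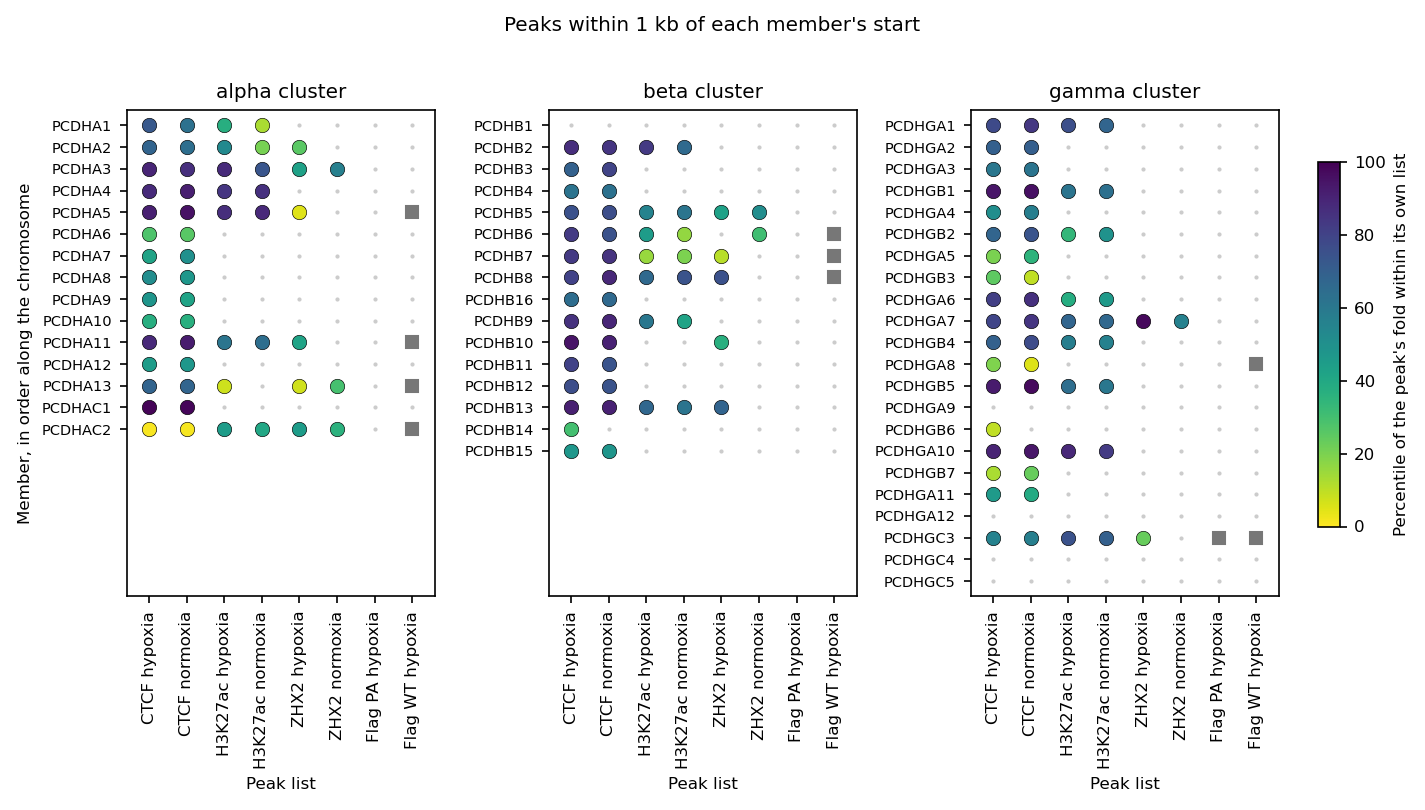
Each row is a member in order along the chromosome and each column 1 of the 8 peak lists. A circle marks a peak within 1 kb of the start, coloured by the percentile of its fold within its own list, a grey square marks a Flag peak (no fold was given), and a small dot marks none. CTCF columns are nearly full (48 of 53 in hypoxia, 46 of 53 in normoxia), while the PA column of Flag holds 1 square and the WT column 9.

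The strength of those CTCF peaks varied widely among members. The median fold at a start was 57.8 in hypoxia and 68.5 in normoxia, against 10.9 and 15.3 for all genes with a CTCF peak at the start. PCDHAC1, a C-type alpha member, had the highest, with a fold of 295 in hypoxia (98.9th percentile of that list) and 360 in normoxia (98.8th percentile). Its peak was the sole one at its start, since no ZHX2, H3K27ac or Flag peak lay there in any list. PCDHAC2, its C-type neighbour, stood at the other extreme with folds of 3.02 in hypoxia (percentile 0.927) and 3.68 in normoxia (percentile 1.52).

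Each cluster held a mixture of strong and weak CTCF starts. Among the other alpha members, PCDHA3, PCDHA4, PCDHA5 and PCDHA11 had folds of 136 to 159 in hypoxia and 127 to 231 in normoxia. PCDHA1, PCDHA2 and PCDHA13 lay between, with folds of 53.8 to 67.3 in hypoxia and 38.6 to 49.3 in normoxia. PCDHA6 to PCDHA10 and PCDHA12 formed a weaker group, with folds of 7.47 to 20.4 in hypoxia and 7.68 to 19.0 in normoxia. The beta cluster had the highest median of the 3 clusters in both conditions (96.3 in hypoxia and 82.9 in normoxia). PCDHB10 led it with a fold of 195 in hypoxia and 163 in normoxia. The gamma starts had medians of 43.8 in hypoxia and 56.6 in normoxia. PCDHGB1 had the highest hypoxia fold of that cluster (193, with 239 in normoxia), and PCDHGB5 the highest normoxia fold (288, with 173 in hypoxia). PCDHGA5, PCDHGB3, PCDHGA8, PCDHGB6 and PCDHGB7 stood low, with hypoxia folds of 4.54 to 6.78.

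The CTCF summits, the points of strongest signal in a peak, lay at the element just before the start in most members. A summit fell between -200 and 100 bp from the start in 39 of 53 members in hypoxia (73.6%, against 19.7% of all genes) and in 39 in normoxia (73.6%, against 19.8%). These limits were chosen after the positions were seen. In hypoxia the median position of these summits was -42.5 bp in alpha, -60 bp in beta and -65 bp in gamma. In normoxia it was -50 bp in alpha, -60 bp in beta and -59 bp in gamma. Of the 43 promoter stretches with CGCT, 38 were covered by a CTCF peak in hypoxia and 37 in normoxia. Where the summit lay before the start, it was within 30 bp of the first CGCT in 33 of 34 promoters in each condition, with a median offset of -1 bp in hypoxia and -2.5 bp in normoxia. Both positions were confined to a short range near the start, so part of this closeness was set in advance. It was not compared with other genes. PCDHB8, which has no CGCT in its stretch, had its summit at 10 bp in hypoxia and 5 bp in normoxia. PCDHB5, the other beta member without one, had its summit at -12 bp in hypoxia and -20 bp in normoxia. In the search of whole promoters on both strands, CGCT stood in 14 of 14 beta promoters. At PCDHB8 and PCDHB5 it therefore lies outside the stretch, and its distance from the summit was not measured.

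Alpha members also had CTCF summits farther inside the gene. A summit lay 200 to 700 bp after the start in 9 of 15 alpha members in hypoxia and in 11 of 15 in normoxia, and in 0 of 16 beta and 0 of 22 gamma members in either condition. Over all members these were 17.0% in hypoxia (13.6% of all genes) and 20.8% in normoxia (15.2% of all genes). In hypoxia their median position was 568 bp, and in normoxia 586 bp. PCDHA3, PCDHA4, PCDHA5, PCDHA9, PCDHA13, PCDHAC1 and PCDHAC2 had their summit there in both conditions, and none was listed before the start. The lists give 1 summit per peak, so a second site under the same wide peak has no summit of its own. At PCDHA12 the hypoxia list had 1 peak of 1003 bp, with its summit at 608 bp. The normoxia list had 2 peaks there, with summits at -41 bp and 637 bp. The 9 and 11 alpha members are therefore not read as a difference in binding. PCDHA4 shows the contrast with its printed element: CGCT begins at -73 bp and lies under the CTCF peak, yet the summit was at 561 bp in hypoxia and 557 bp in normoxia. PCDHA8, with CGCT at -41 bp, had its strongest summit at -42 bp in hypoxia and -25 bp in normoxia, and in normoxia it also had a summit in the inner range. Whether the inner summits mark the known exonic site was not tested, because no exon annotation was used here.

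**Figure D2:**
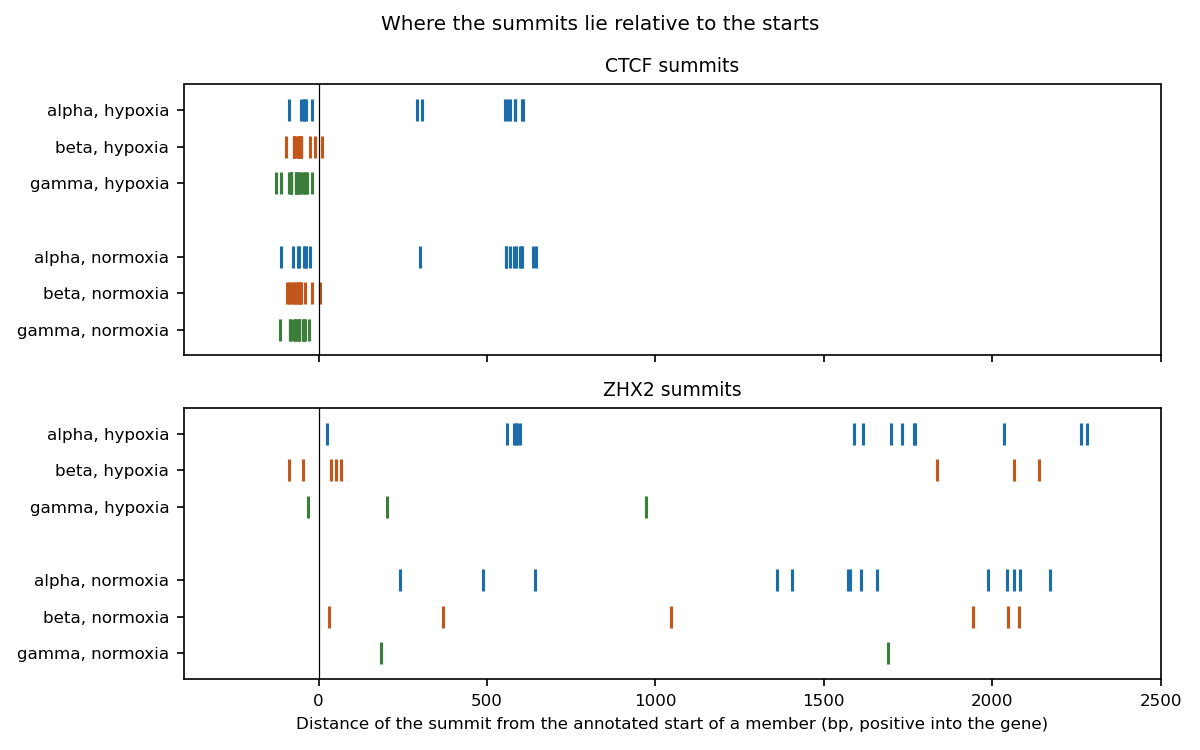
Each tick is a peak summit, placed by its distance from the annotated start of a member in bp (positive values run into the gene), for CTCF peaks at starts (upper panel) and ZHX2 peaks up to 2500 bp after a start (lower panel). Clusters and conditions are in separate lines, hypoxia above normoxia. CTCF summits gather just before the start in all 3 clusters, with a second group around 568 bp (hypoxia) and 586 bp (normoxia) in alpha, and ZHX2 summits form a group beyond 1000 bp.

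H3K27ac, a mark of active promoters and enhancers, split the members into 2 classes. In hypoxia 24 of 53 starts had an H3K27ac peak (45.3%, against 64.1% of all genes), and in normoxia 23 had one (43.4%, against 63.4%). In hypoxia these were 8 alpha, 7 beta and 9 gamma members, and in normoxia 7 alpha, 7 beta and 9 gamma members. In alpha they ran from PCDHA1 to PCDHA5 without a break, then PCDHA11 and PCDHAC2 in both lists, and PCDHA13 in hypoxia alone. In beta they were PCDHB2, PCDHB5, PCDHB6, PCDHB7, PCDHB8, PCDHB9 and PCDHB13 in both lists. In gamma they were PCDHGA1, PCDHGB1, PCDHGB2, PCDHGA6, PCDHGA7, PCDHGB4, PCDHGB5, PCDHGA10 and the C-type member PCDHGC3 in both lists.

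The strongest acetylated start differed between the lists in alpha and beta and was the same member in gamma. PCDHA3 had the highest alpha fold in hypoxia (15.0, at the 88.0th percentile, with the 73.6th percentile in normoxia), and PCDHA5 the highest in normoxia (17.1, with 14.5 in hypoxia). PCDHGA10 led the gamma cluster with a fold of 15.4 (88.8th percentile) in hypoxia and 14.5 (82.6th percentile) in normoxia. PCDHB2 led the beta cluster in hypoxia (12.8, with 8.47 in normoxia), and PCDHB8 in normoxia (11.3, with 7.13 in hypoxia). PCDHA13, the member acetylated in hypoxia alone, was weak there, with a fold of 2.65 at the 7.59th percentile of its list.

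Every acetylated start also had a CTCF peak, and the acetylated starts had the stronger CTCF peaks. All 24 members with H3K27ac in hypoxia and all 23 in normoxia had CTCF at the start, against 76.5% (hypoxia) and 78.0% (normoxia) of all genes with H3K27ac at the start. CTCF without H3K27ac stood at 24 of 53 starts in hypoxia (45.3%, against 5.70% of all genes) and at 23 in normoxia (43.4%, against 7.17%). The median CTCF fold was 105 at the 24 starts with H3K27ac and 16.6 at the 24 without in hypoxia. In normoxia it was 120 at the 23 with and 19.0 at the 23 without. Over all genes the medians went the other way, with 10.3 at starts with H3K27ac and 20.9 at starts without in hypoxia, and 14.9 with and 18.7 without in normoxia. The 2 classes of member overlapped: PCDHAC1 and PCDHB10 had strong CTCF (295 and 195 in hypoxia) with no acetylation, and PCDHAC2 had acetylation with a CTCF fold of 3.02.

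**Figure D3:**
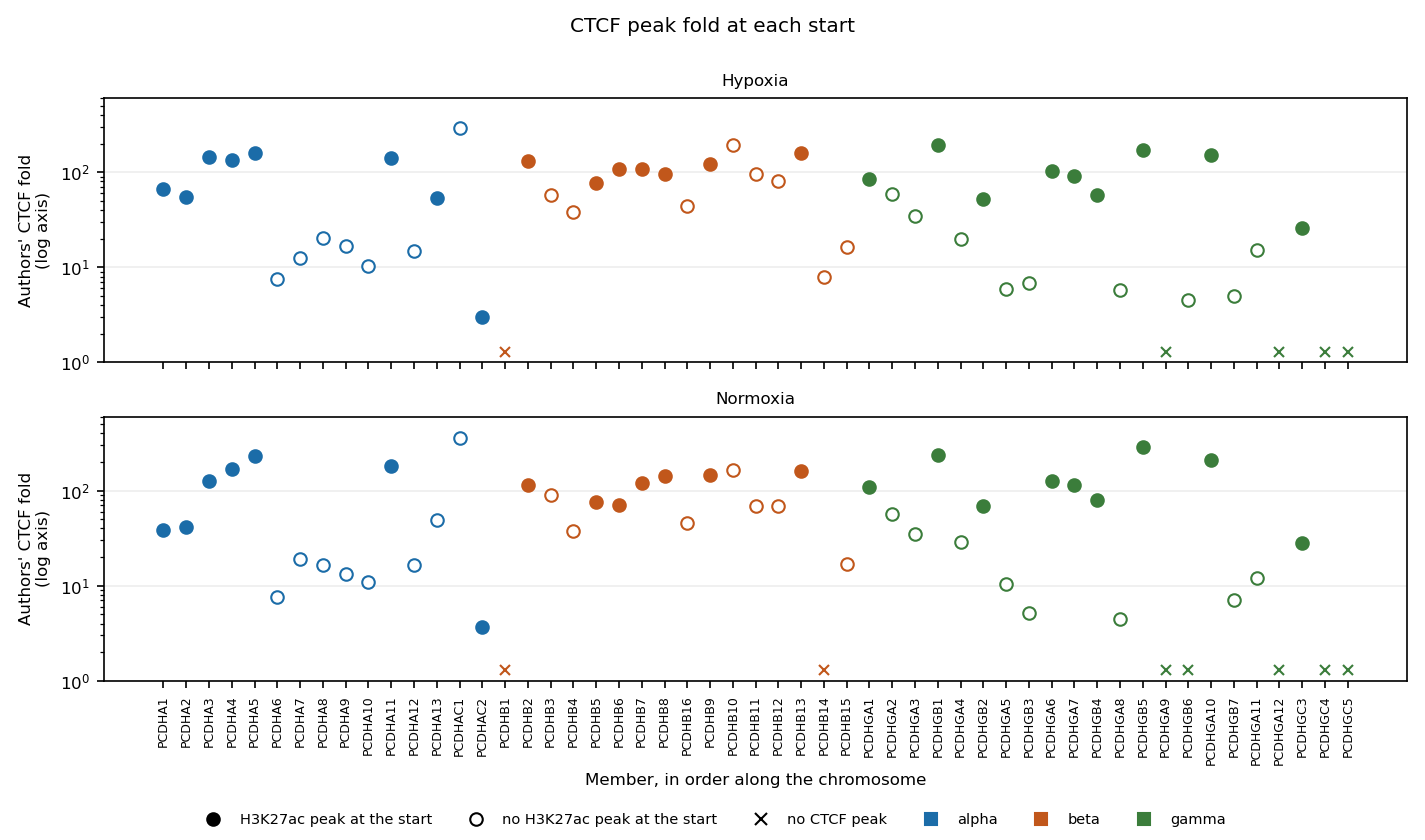
The authors' fold of the strongest CTCF peak within 1 kb of each start is plotted on a log axis for the 53 members in order along the chromosome, hypoxia above and normoxia below. Filled circles are members with an H3K27ac peak at the start, open circles members without, and crosses members with no CTCF peak (placed at the foot of the axis). Filled circles have a median of 105 in hypoxia and 120 in normoxia, and open circles 16.6 in hypoxia and 19.0 in normoxia.

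ZHX2, the zinc finger and homeobox protein of the study's title, was at fewer starts of these genes. In hypoxia 13 of 53 members had a ZHX2 peak within 1 kb of the start (24.5%, against 55.3% of all genes), and in normoxia 6 had one (11.3%, against 27.4%). Within 3 kb the counts were 19 in hypoxia and 18 in normoxia, and no share of all genes was counted for that window. The 13 were 6 alpha, 5 beta and 2 gamma members, and the 6 were 3 alpha, 2 beta and 1 gamma. The strongest was at PCDHGA7 (141382540 to 141383509 in hypoxia), with a fold of 8.71 at the 98.0th percentile of the hypoxia list. In normoxia its fold was 3.49, at the 56.4th percentile. All other ZHX2 peaks at starts had folds between 2.25 and 4.15 in hypoxia and between 2.83 and 3.51 in normoxia.

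Where ZHX2 lay at a start, H3K27ac was there about as often among the members as among all genes. Fewer member starts had ZHX2 at all, so this likeness holds for starts with ZHX2 only. In hypoxia 12 of the 13 also had H3K27ac at the start, against 12 of the 40 members without ZHX2. The exception was PCDHB10, with a ZHX2 fold of 3.05. In normoxia 5 of the 6 had H3K27ac, against 18 of the 47 without ZHX2, and the exception was PCDHA13. For all genes, 93.5% of those with ZHX2 at the start had H3K27ac in hypoxia, against 27.9% of those without ZHX2, and 90.0% against 53.3% in normoxia. CTCF lay at the start of all 13 members with ZHX2 in hypoxia and of 35 of the 40 without, against 79.6% and 24.1% of all genes. In normoxia it lay at all 6 with ZHX2 and at 40 of the 47 without, against 81.9% and 47.1% of all genes. The ZHX2 and CTCF summits of overlapping peaks at starts were a median of 49 bp apart in hypoxia (6 to 1054 bp, 14 peaks) and 176 bp apart in normoxia (43 to 426 bp, 6 peaks).

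**Figure D4:**
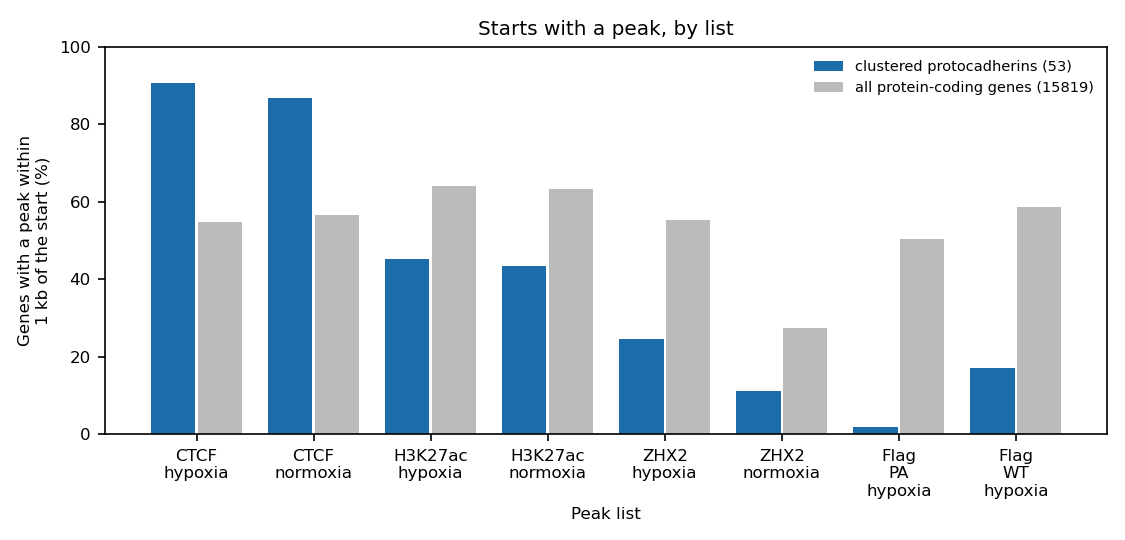
Bars give the percentage of genes with a peak within 1 kb of the start in each of the 8 lists, for the 53 clustered protocadherins (blue, left) and for 15819 protein-coding genes (grey, right). The members stand above all genes for CTCF (90.6% against 54.8% in hypoxia) and below them for H3K27ac, ZHX2 and Flag (1.89% against 50.3% in the PA list).

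Together the 3 proteins and marks gave 5 patterns at the starts. In hypoxia 12 members had CTCF, H3K27ac and ZHX2, 12 had CTCF and H3K27ac without ZHX2, 1 had CTCF and ZHX2, 23 had CTCF alone and 5 had none. In normoxia 5 had all 3, 18 had CTCF and H3K27ac without ZHX2, 1 had CTCF and ZHX2, 22 had CTCF alone and 7 had none. The 5 patterns were not counted over all genes, so they do not show which are particular to the locus. Regardless of ZHX2, CTCF with H3K27ac stood at 45.3% of members and 49.1% of all genes in hypoxia (43.4% and 49.5% in normoxia). CTCF without H3K27ac stood at 45.3% and 5.70% in hypoxia (43.4% and 7.17% in normoxia). The members with CTCF alone in hypoxia were PCDHA6 to PCDHA10, PCDHA12 and PCDHAC1 in alpha, PCDHB3, PCDHB4, PCDHB11, PCDHB12, PCDHB14, PCDHB15 and PCDHB16 in beta, and PCDHGA2 to PCDHGA5, PCDHGA8, PCDHGA11, PCDHGB3, PCDHGB6 and PCDHGB7 in gamma.

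Between conditions, ZHX2 starts overlapped in part. PCDHA3, PCDHA13, PCDHAC2, PCDHB5 and PCDHGA7 had a ZHX2 peak at the start in both lists (9.43%, against 25.7% of all genes). Beside PCDHGA7, their folds were 3.17 in hypoxia and 3.51 in normoxia at PCDHA3, 2.34 in hypoxia and 2.95 in normoxia at PCDHA13, and 3.16 in hypoxia and 3.38 in normoxia at PCDHB5. In hypoxia alone 8 members had one (15.1%, against 29.5% of all genes): PCDHA2, PCDHA5, PCDHA11, PCDHB7, PCDHB8, PCDHB10, PCDHB13 and PCDHGC3. The highest folds among them were 4.15 at PCDHB8, 3.85 at PCDHB13, 3.15 at PCDHA11 and 3.05 at PCDHB10. In normoxia alone 1 member had one, PCDHB6, with a fold of 2.98 (1.89%, against 1.65% of all genes). The hypoxia list is longer, and cut to the length of the normoxia list by the authors' score it held a peak at 5 member starts in place of 13, with 6 in normoxia. No share of all genes was counted with the cut list. CTCF starts were shared by 46 members (86.8%, against 51.5% of all genes), with PCDHB14 (fold 8.00) and PCDHGB6 (fold 4.54) in hypoxia alone and none in normoxia alone (3.77%, against 3.27% of all genes, and 0 against 5.15%). H3K27ac starts were shared by 23 members (43.4%, against 62.9%), with PCDHA13 in hypoxia alone (1.89%, against 1.21%) and none in normoxia alone (0 against 0.449%).

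Counted once each inside the 3 clusters, ZHX2 had more peaks than its starts account for. There were 32 distinct ZHX2 peaks in hypoxia, or 5.22 per 100 kb against 1.07 over chromosomes 1 to 22 and X, and 28 in normoxia, or 4.57 against 0.481. At a -log10 q of at least 5 there were 18 in hypoxia and 15 in normoxia. CTCF had 58 in hypoxia (9.47 per 100 kb against 2.55) and 59 in normoxia (9.63 against 2.91). H3K27ac had 31 in hypoxia (5.06 against 1.54) and 29 in normoxia (4.73 against 1.41). Of the ZHX2 peaks, 14 in hypoxia and 7 in normoxia were at starts. At the shared end of the gamma cluster lay 1 in hypoxia and 2 in normoxia, and elsewhere 17 in hypoxia and 19 in normoxia. The densities were not compared with those of other stretches equally rich in genes.

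Many ZHX2 peaks of the clusters had a summit 1000 to 2500 bp after a start, limits chosen after the positions were seen. In hypoxia there were 12 such peaks, 9 in alpha and 3 in beta, with a median distance of 1803 bp. In normoxia there were 16, with 11 in alpha, 4 in beta and 1 in gamma, and a median of 1817 bp. The normoxia peak at PCDHB6 with a summit at 1045 bp reaches within 1 kb of the start, so it is also among the 7 counted at starts. By member this was 10 of 53 in hypoxia (18.9%, against 9.73% of all genes) and 14 in normoxia (26.4%, against 4.39% of all genes). PCDHA3, PCDHA6, PCDHA8, PCDHA10, PCDHA11, PCDHA12, PCDHA13 and PCDHB7 had one in both conditions. The hypoxia list alone had them at PCDHB11 and PCDHB12. The normoxia list alone had them at PCDHA1, PCDHA4, PCDHA5, PCDHB4, PCDHB6 and PCDHGB6.

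These inner peaks had folds like those of the ZHX2 peaks at starts and rarely overlapped the other marks. Their median fold was 3.12 in hypoxia and 3.03 in normoxia, and that of peaks with a summit between -200 and 1000 bp was 3.10 in hypoxia and 3.22 in normoxia. Their folds ran from 2.24 to 4.38 in hypoxia and from 2.75 to 4.14 in normoxia, and the strongest was at PCDHA12 in hypoxia (140876726 to 140877065) and at PCDHB7 in normoxia (141174332 to 141174815). In hypoxia 0 of the 12 overlapped H3K27ac and 1 overlapped CTCF, and in normoxia 0 of the 16 overlapped H3K27ac and 1 overlapped CTCF. Over all genes, 84.1% of the ZHX2 peaks in that range overlapped H3K27ac in hypoxia and 70.1% in normoxia, and 48.8% overlapped CTCF in hypoxia and 45.6% in normoxia. All 14 hypoxia peaks with a summit between -200 and 1000 bp overlapped CTCF and 12 overlapped H3K27ac, and of the 6 in normoxia 6 overlapped CTCF and 5 overlapped H3K27ac. Over all genes, 72.5% of the ZHX2 peaks in that range overlapped CTCF and 92.5% overlapped H3K27ac in hypoxia, with 73.3% and 87.8% in normoxia. Of the 12 inner peaks in hypoxia 6 had a -log10 q of at least 5, and of the 16 in normoxia 6 did. In the hypoxia list cut to equal length 2 members kept one, with 14 in normoxia. Variable exons of a cluster resemble each other in sequence, and the sources used here do not say how reads that match several of them were placed. Peaks inside the genes are therefore uncertain as to which member they belong to.

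Over all ZHX2 peaks of the clusters the overlap with the other lists was mixed. In hypoxia 59.4% of the 32 overlapped CTCF (Wilson 95% interval 42.3 to 74.5%, whole list 45.6%) and 46.9% overlapped H3K27ac (30.9 to 63.6%, whole list 72.9%). In normoxia 39.3% of the 28 overlapped CTCF (23.6 to 57.6%, whole list 43.6%) and 25.0% overlapped H3K27ac (12.7 to 43.4%, whole list 56.7%). H3K27ac peaks of the clusters mostly lay on CTCF, with 93.5% of 31 in hypoxia (79.3 to 98.2%, whole list 39.5%) and 93.1% of 29 in normoxia (78.0 to 98.1%, whole list 44.4%). The intervals cover counting error over peaks only. Of the hypoxia ZHX2 peaks 18 of 32 overlapped a normoxia peak (56.2%, whole list 27.4%), and of the normoxia peaks 16 of 28 overlapped a hypoxia peak (57.1%, whole list 62.6%). With lists of equal length the ZHX2 peaks without a partner were 4 in hypoxia and 23 in normoxia, in place of 14 in hypoxia and 12 in normoxia. CTCF peaks were shared in 53 of 58 cases in hypoxia (91.4%, whole list 93.0%) and 55 of 59 in normoxia (93.2%, whole list 82.3%). H3K27ac peaks were shared in 29 of 31 cases in hypoxia (93.5%, whole list 80.6%) and 29 of 29 in normoxia (100.0%, whole list 89.1%).

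Flag peaks were at few of these starts, and the PA list had the fewest. In the PA list 1 of 53 members had a Flag peak within 1 kb of the start (1.89%, against 50.3% of all genes), and in the WT list 9 had one (17.0%, against 58.6%). Both lists had the same peak at PCDHGC3 (141475726 to 141476992, 1267 bp wide), the member in both lists (1.89%, against 49.8% of all genes). In the WT list alone 8 members had one (15.1%, against 8.72% of all genes), and none did in the PA list alone (0 against 0.468%). The widest of the 8 were at PCDHB8 (796 bp), PCDHA11 (793 bp), PCDHB6 (743 bp) and PCDHA5 (713 bp), and the others were at PCDHAC2, PCDHGA8, PCDHA13 and PCDHB7. Of the 9 members in the WT list, 7 had a ZHX2 peak at the start in hypoxia, against 6 of the other 44 members, and 8 had H3K27ac there, against 16 of the other 44. Over all genes, 82.8% of those in the WT list had ZHX2 at the start, against 16.3% of the others, and 95.9% had H3K27ac, against 19.2%.

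Inside the clusters the PA list held 3 distinct Flag peaks and the WT list 16. Per 100 kb this was 0.490 in the PA list (0.529 genome-wide) and 2.61 in the WT list (1.03 genome-wide). Of the PA peaks 2 of 3 were shared with WT, and of the WT peaks 2 of 16 were shared with PA (12.5%, Wilson 95% interval 3.50 to 36.0%, whole list 48.5%). The second shared peak lay far into the alpha cluster (141003850 to 141004828), on a hypoxia H3K27ac peak. The PA peak without a WT partner lay at the start of the pseudogene PCDHB17P. Over the whole lists, 15163 peaks had the same start and end in both, which is 94.7% of the PA list and 48.5% of the WT list. The sources used here do not say how the Flag lists were made.

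The 5 C-type members differed among themselves. PCDHAC1 carried the strongest CTCF peak of the locus and nothing else. PCDHAC2 had a weak CTCF peak, H3K27ac folds of 3.99 in hypoxia and 4.12 in normoxia, ZHX2 folds of 3.23 in hypoxia and 3.07 in normoxia, and a WT Flag peak 501 bp wide. PCDHGC3 had CTCF folds of 25.9 in hypoxia and 27.9 in normoxia and H3K27ac folds of 9.72 in hypoxia and 9.77 in normoxia. It also had ZHX2 peaks in hypoxia alone, with folds of 2.77 and 2.68, and the Flag peak seen in both forms. PCDHGC4 and PCDHGC5 had no peak at the start in any of the 8 lists.

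The ends of the clusters and the gaps between them carried further peaks. The alpha and gamma clusters each have 1 shared end, and counting peaks at either end raises the members with ZHX2 to 34 in hypoxia (56.3% of all genes) and 27 in normoxia (29.7%), because the shared gamma end then counts for all 22 gamma members. PCDHB9 was added in hypoxia because the peak already counted at the start of PCDHB10 lies within 1 kb of its end. The hypoxia peak at the gamma end had a -log10 q of 1.64, and among peaks with a -log10 q of at least 5 the order turned, with 10 members in hypoxia and 25 in normoxia. The same count gave 52 in hypoxia and 51 in normoxia for CTCF (59.6% of all genes in hypoxia and 61.9% in normoxia). For H3K27ac it gave 38 in hypoxia (65.2% of all genes) and 37 in normoxia (64.4%). For Flag it gave 1 in the PA list (50.2% of all genes) and 9 in the WT list (58.5%). At the gamma end a CTCF peak (141511907 to 141513848 in hypoxia) had a fold of 186 in hypoxia and 215 in normoxia. ZHX2 peaks lay on it at 141513144 to 141513405 in hypoxia (fold 2.33) and at 141512577 to 141512781 and 141513046 to 141513338 in normoxia (folds 3.21 and 3.00).

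Between the start of PCDHB1 and that of PCDHB2 lay a site with several marks and no member start. There CTCF (141084178 to 141084990 in hypoxia) had a fold of 115 in hypoxia and 118 in normoxia, and H3K27ac one of 14.6 in hypoxia and 13.1 in normoxia. ZHX2 had a fold of 4.44 in hypoxia and 3.67 in normoxia there, and Flag had a peak in the WT list. Between the alpha and beta clusters a CTCF peak (141039642 to 141042342 in hypoxia) had a fold of 141 in hypoxia and 129 in normoxia, with H3K27ac folds of 10.7 in hypoxia and 10.8 in normoxia. That site also had a ZHX2 peak in hypoxia alone (fold 2.82) and Flag peaks in the PA and WT lists. Downstream of the PCDHAC2 start, inside the alpha cluster, an H3K27ac peak (140986934 to 140989869 in hypoxia) had a fold of 6.29 in hypoxia and 6.62 in normoxia with no CTCF peak on it. Enhancers are known in these regions, and whether any of these peaks is one of them was not tested.

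Other protocadherins, the proteins that regulate the locus and neighbouring genes were counted within 1 kb of either end. Of all genes, ZHX2 lay at 56.3% in hypoxia and 29.7% in normoxia. CTCF lay at 59.6% in hypoxia and 61.9% in normoxia, and H3K27ac at 65.2% in hypoxia and 64.4% in normoxia. Flag lay at 50.2% in the PA list and 58.5% in the WT list. The gamma members share an end, so the members' counts at either end are not set beside these. Of 11 protocadherin genes outside the clusters, ZHX2 peaks lay at 3 in hypoxia (PCDH1, PCDH7 and PCDH20) and at 1 in normoxia (PCDH1). CTCF lay at 3 of the 11 in hypoxia and 4 in normoxia, and H3K27ac at 5 in each. Flag lay at the same 4 (PCDH1, PCDH8, PCDH9 and PCDH19) in the PA and WT lists. Of 13 regulators, among them CTCF, the cohesin subunits RAD21 and SMC3, and SMCHD1 and SETDB1, which silence chromatin, 13 had H3K27ac in both conditions, and ZHX2 lay at 12 in hypoxia and 11 in normoxia. Flag lay at 12 of the 13 in the PA list and at 12 in the WT list. Of 15 neighbouring genes that are not protocadherins, ZHX2 lay at 8 in hypoxia and 2 in normoxia, H3K27ac at 13 in hypoxia and 12 in normoxia, and Flag at 12 in the PA list and 12 in the WT list.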

How the data were processed

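ChIP-seq was done in T47D cells, with 16 immunoprecipitated samples in 8 groups of 2 and 12 samples without an antibody, grouped by titles and antibody labels. The submitters' processing notes name cutadapt, Bowtie2, MACS2 and the build GRCh38 (hg38). For each of those groups the authors deposited 1 list of peaks. The sources used here do not say whether its 2 samples were pooled, which inputs entered, or how deep the libraries were, so the precision of a peak is unknown. The authors' values per peak, used as deposited, are the score, the fold (a ratio to background) and the −log10 q-value. Flag lists hold positions alone. ZHX2 peaks go down to a −log10 q of 1.30 and CTCF peaks to 5.09 in hypoxia and 5.00 in normoxia, so numbers of peaks are not compared between antibodies.

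Peaks off chromosomes 1 to 22 and X were left out. A peak within 1 kb of an annotated gene start (15819 genes with strand) or end (19821 genes, RefSeq table of GRCh38.p14) was counted at that gene, and members without a strand entry were taken as plus strand like the other members. Peaks overlapping by 1 bp were called shared. H3K27ac and Flag peaks have no summit, and their midpoint was used. The counting was tested on simulated peaks. No test between groups was made, since each group has 1 list. All members are accounted for. Values are given for the member with the highest fold (width for Flag) per cluster and list, up to 4 members per pair and direction present in 1 condition or form alone, the 5 C-type members, and others named after their values were seen. The members, lists of genes and settings were chosen with earlier results of these data known. Alternatives were a 3 kb window, starts alone, −log10 q of at least 5, peaks merged within 100 bp, an overlap of 50%, lists of equal length, and ZHX2 peaks reduced to 200 bp. Python 3.11.15 with pandas 2.3.3, numpy 2.4.6 and matplotlib 3.10.9 was used.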

Additional observations from a re-analysis of the deposited data

How the results depend on the processing

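No paired analysis was possible because each group has 1 peak list with no value per replicate, and leaving out a replicate could not be run for the same reason. The −log10 q limit and the equal length could not be run for the Flag lists, which hold no score. Counts of CTCF peaks and Flag WT peaks, and all shares of ZHX2 peaks on CTCF or H3K27ac, stayed within 1.5 times or within their interval under each alternative run. With starts alone in place of either end, ZHX2 had 13 members in hypoxia (34 at either end) and 6 in normoxia (27), and H3K27ac 24 in hypoxia (38) and 23 in normoxia (37), by construction, since all gene ends are left out. At a −log10 q of at least 5, ZHX2 in hypoxia had 10 members at either end and 18 distinct peaks (32), and ZHX2 in normoxia had 15 distinct peaks (28). The same limit left 9 ZHX2 peaks in hypoxia alone (14) and 6 in normoxia alone (12). With lists of equal length 4 ZHX2 peaks were in hypoxia alone and 23 in normoxia alone. Within 3 kb, 18 members had a ZHX2 peak at the start in normoxia (6) and 2 had a Flag peak at either end in the PA list (1). Added after seeing the data, lists of equal length left 5 members with ZHX2 at the start in hypoxia (13) and 2 with a summit 1 to 2.5 kb after the start (10), and the −log10 q limit left 6 such members in hypoxia and 6 in normoxia (14). Shares of all genes were not counted under these alternatives, so whether the shifts are particular to the members is not known. Except where stated the cause was not tested. Depth is not given, so a missing peak does not show that the protein is absent.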

Other observations

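Of the pseudogenes of the locus, 2 had CTCF summits just before their annotated starts. PCDHB17P (chromosome 5, 141155782 to 141159061) had a CTCF summit at -20 bp in hypoxia (fold 119) and at -21 bp in normoxia (fold 169). It had ZHX2 summits at 18 bp and 2055 bp in hypoxia (folds 3.74 and 2.95) and at 52 bp and 1961 bp in normoxia (folds 3.15 and 3.65). Its H3K27ac folds were 5.33 in hypoxia and 8.24 in normoxia, and a Flag peak lay there in the PA list alone. PCDHB18P had a CTCF summit at -33 bp in hypoxia (fold 10.9) and at -46 bp in normoxia (fold 9.68), with no H3K27ac, ZHX2 or Flag peak there. PCDHGB9P had a CTCF summit farther out, at -558 bp in hypoxia (fold 47.4) and at -552 bp in normoxia (fold 61.4), with H3K27ac folds of 3.40 in hypoxia and 5.02 in normoxia.

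Between the beta and gamma clusters, near TAF7, a single-exon gene for a subunit of the general transcription machinery, a CTCF peak (141319659 to 141320820 in hypoxia) had a fold of 134 in hypoxia and 151 in normoxia. H3K27ac there had a fold of 14.2 in hypoxia and 21.3 in normoxia. ZHX2 had a peak there in hypoxia alone (fold 4.29), and Flag had the same peak in the PA and WT lists (141320240 to 141321539). In the gamma cluster ZHX2 had a peak of fold 3.68 in normoxia alone at 141457873 to 141458072, far from any member start.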
